A study of Mus musculus with 15 samples.

Results

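FGF2/Activin against 2iLif compares mouse E14 embryonic stem cells that were moved to growth factor medium with cells that stayed in the medium that holds them in the ground state of pluripotency. The comparison uses 6 of the 15 RNA sequencing libraries of the study, all chosen by their sample labels, and covers every gene in the count table. FGF2/Activin stands for 3 libraries of wild-type E14 cells embedded in growth factor reduced Matrigel under N2B27 medium with FGF2 and Activin, which the treatment description writes as FAK without expanding it. 2iLif stands for 3 libraries of the same line in the same gel and basal medium with 2iLif. Before embedding, all cells were kept with 0.4 µM of the MEK inhibitor PD0325901, 3 µM of the GSK3 inhibitor CHIR99021 and 4 ng/ml Lif, and they entered the gel at 2000 cells per µl. The dose of FGF2 and of Activin and the time in the gel are not stated in the labels. The 2 media differ in several agents at the same time, since growth factors were added and both inhibitors and Lif were left out. As FAK is not expanded, whether a further supplement differed is not known. The parts of each agent cannot be told apart. All libraries come from a single cell line, and nothing says that replicates came from separate cultures. The p-values therefore cover just the spread among replicates, estimated over all 15 libraries of the study, which may be technical.

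In the ground state, blocking MEK shuts off the ERK pathway, blocking GSK3 stabilises beta-catenin and so turns on Wnt target genes, and Lif activates STAT3 through the receptor subunits Lifr and gp130. When these agents are withdrawn, cells leave that state and pass into a formative state that resembles the early epiblast after implantation. FGF2 signals through FGF receptors to ERK, and Activin signals through SMAD2 and SMAD3, the route that Nodal uses in the embryo. Matrigel supplies laminin and other basement membrane proteins, and epiblast cells that contact such a matrix become polarised around a lumen.

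Total counts per library ran between 15234243 and 15703321 in FGF2/Activin and between 15199507 and 15818758 in 2iLif. Levels are given as CPM, the count scaled to a common library total after TMM scaling. Fold changes, their standard errors (SE) and adjusted p-values come from edgeR, fitted on all 15 libraries, and log2 fold changes are FGF2/Activin over 2iLif throughout, so a positive value is higher in FGF2/Activin. The threshold for passing was an adjusted p under 0.05 by the Benjamini-Hochberg method over 15223 genes tested, and means are ± SD over n = 3 libraries per group. Replicates lay close together: variation between replicates beyond counting error was estimated at 1.78% in FGF2/Activin and 4.53% in 2iLif (coefficient of variation). It was 8.84% to 11% in the 3 inhibitor groups that share the estimate of the spread. Whether this variation is biological or technical is not known. 2iLif replicate 3 stood apart for the clone-named gene CT010467.1, which is annotated as rRNA. CT010467.1 had 361 and 335 CPM in replicates 1 and 2 and 3550 CPM in replicate 3. The same library stood apart for Lars2, which had 58.4 and 59.3 CPM in replicates 1 and 2 and 200.4 CPM in replicate 3. Of 4605 genes at 50 CPM or more in 2iLif, these 2 were more than 1.5-fold off in that library. Of 10 markers of pluripotent cells, all were measured in both groups, 6 rose and 4 fell. At least 2-fold changes were seen in 3 that rose, Epcam among them (log2 fold change 2.57), and in 1 that fell, Sox2 (-1.54). Sall4 fell less (-0.76). Pou5f1, the factor Oct4, had 711, 680.4 and 712 CPM in FGF2/Activin, against 810.3, 820.02 and 858 CPM in 2iLif, without overlap between groups (edgeR adjusted p = 0.023, but 0.076 when FGF2/Activin replicate 2 was left out). Of 16 naive pluripotency markers 14 fell, and of 13 tested formative markers 13 rose, which is the change of state described here in the genes around those markers.

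The change of medium reached most of the transcriptome. Of 15223 genes tested, 5063 rose (33.3%) and 4962 fell (32.6%), so 65.9% passed in one direction or the other, and the groups did not overlap for 75.7% of genes. These shares are the background for the counts of each gene group. Every gene named below as risen or fallen had no overlap between the libraries of the groups, apart from CT010467.1. The median log2 fold change over all genes was -0.01 and the median size was 0.48, so a typical change was small. With a change of at least 2-fold required as well, 2525 genes rose (16.6%) and 1682 fell (11%). Large changes were more often increases: 820 genes rose and 366 fell at least 8-fold, and 152 rose and 53 fell at least 64-fold. Among protein-coding genes 35.8% rose and 34.3% fell, against 10.2% and 16.5% of the 756 pseudogenes tested.

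Ranked by fold, among genes with a mean of at least 10 CPM in the higher group, the largest increases included genes at or near 0 counts in 2iLif. Car4, a carbonic anhydrase anchored to the cell surface, had 45.8, 47.2 and 47.3 CPM in FGF2/Activin, against 0, 0 and 0 CPM in 2iLif. No read was counted for Car4 in any 2iLif library, against 2178 counts over the FGF2/Activin libraries, so its level was at least 729-fold higher, taking 3 counts over the whole 2iLif group as the limit. Car4 (ENSMUSG00000000805) lies on chromosome 11, from 84957786 to 84966044 (mm10, GENCODE M21). Rbbp8nl, a relative of the DNA end-resection factor Rbbp8, had 10.9, 10.2 and 10.3 CPM in FGF2/Activin, against 0, 0 and 0 CPM in 2iLif, at least 163-fold higher by the same limit. Fgf5, an epiblast growth factor, had 81.7, 80.9 and 85.3 CPM in FGF2/Activin, against 0.06499, 0 and 0.1302 CPM in 2iLif. The ratio of its counts was 1287 (95% interval 440.2 to 6246), an interval that covers counting error only, as do all such intervals here. Mmp25, a membrane-anchored matrix metalloproteinase, had 2648 counts in FGF2/Activin and 2 in 2iLif, and Wt1, a zinc finger transcription factor of kidney and gonad development, had 2595 counts in FGF2/Activin and 2 in 2iLif. Tmem54, a membrane protein, had 1096 counts in FGF2/Activin and 1 in 2iLif, and Oasl2, an interferon-inducible relative of the oligoadenylate synthetases, had 772 in FGF2/Activin and 1 in 2iLif. Fgf15, a hormone-like member of the FGF family, had 45.4, 42.6 and 45.2 CPM in FGF2/Activin, against 0.12999, 0.0676 and 0 CPM in 2iLif. Lefty1, a secreted inhibitor of Nodal, had 237, 224 and 216 CPM in FGF2/Activin, against 0.38996, 0.338 and 0.912 CPM in 2iLif, and its libraries lay far apart between the groups (log2 fold change 8.66, SE 0.42, edgeR adjusted p = 3e-11).

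The largest decreases by fold, under the same minimum of 10 CPM, were as deep. Sp5, a zinc finger factor that Wnt signalling switches on, had 0, 0.0638 and 0 CPM in FGF2/Activin, against 64.3, 68.9 and 62.8 CPM in 2iLif. A single read was counted in FGF2/Activin, against 2974 in 2iLif, and the 2iLif group was higher by a count ratio of 2964 (95% interval 532 to 117102). Trpm1, a cation channel known from melanocytes and retina, had 0, 0 and 0.0639 CPM in FGF2/Activin, against 51.4, 47.1 and 54.3 CPM in 2iLif. Spic, an ETS factor known from iron-recycling macrophages, had 0, 0 and 0 CPM in FGF2/Activin, against 11.2, 12.5 and 11.8 CPM in 2iLif, and with 0 counts in FGF2/Activin its level there was at least 179-fold lower. Ntn1, the guidance protein netrin 1, had 1.77, 1.53 and 1.28 CPM in FGF2/Activin, against 418, 422 and 423 CPM in 2iLif. It was the most abundant of the 10 genes that fell by the largest fold under that minimum (log2 fold change -8.10, SE 0.13, edgeR adjusted p = 1.3e-16). Tbx3, a T-box factor of the naive network, had 0.852, 0.893 and 1.15 CPM in FGF2/Activin, against 189, 181 and 174 CPM in 2iLif, and Jam2, a junctional adhesion molecule, had 1.51, 1.53 and 1.53 CPM in FGF2/Activin, against 213, 213 and 224 CPM in 2iLif. All FGF2/Activin libraries of both genes lay below all 2iLif libraries, with log2 fold changes of -7.54 (SE 0.34) and -7.14 (SE 0.31). Mras, a Ras-family GTPase, averaged 0.215 ± 0.134 CPM in FGF2/Activin against 50.02 ± 3.05 CPM in 2iLif, and Pglyrp1, an innate immune protein that binds bacterial cell walls, averaged 0.1501 ± 0.0971 CPM in FGF2/Activin against 24.98 ± 0.709 CPM in 2iLif. Serpinb1a, an inhibitor of neutrophil proteases, averaged 0.129 ± 0.0639 CPM in FGF2/Activin against 16.5 ± 0.848 CPM in 2iLif, while Dmgdh, a mitochondrial enzyme of choline breakdown, had 3 counts in FGF2/Activin and 1105 in 2iLif.

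**Figure D1:**
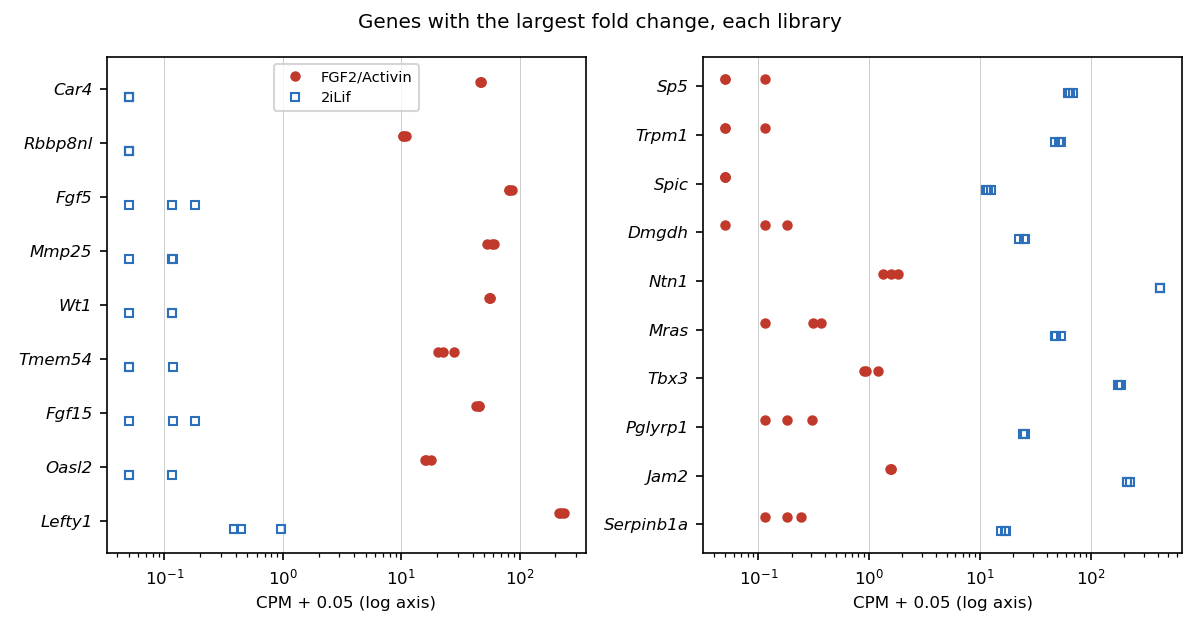
CPM plus 0.05 on a log axis for 9 of the 10 genes with the largest increase (left) and the 10 with the largest decrease (right) among genes with a mean of at least 10 CPM in the higher group, 1 point per library, filled circles for FGF2/Activin and open squares for 2iLif. In all genes shown the 3 libraries of a group sit together and the groups do not overlap, as the rule for choosing them required.

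Ranked by the amount of RNA that changed, other genes led. Dnmt3b, a de novo DNA methyltransferase, had 2742, 2704 and 2693 CPM in FGF2/Activin, against 242, 246 and 237 CPM in 2iLif, and its partner Dnmt3a had 1358, 1385 and 1410.1 CPM in FGF2/Activin, against 37.05, 34.8 and 36.01 CPM in 2iLif. These were the 2 largest gains in CPM of all genes called. Further gains came from Ldha, the lactate dehydrogenase subunit that favours lactate production, at 1491 ± 32.6 CPM in FGF2/Activin against 534 ± 71.01 CPM in 2iLif, and from Pkm, a pyruvate kinase, at 2873 ± 32.2 CPM in FGF2/Activin against 2317 ± 133 CPM in 2iLif. Col18a1, a basement membrane collagen, had 685, 681 and 674 CPM in FGF2/Activin, against 90.7, 86.98 and 88.95 CPM in 2iLif, which is a log2 fold change of 2.94 with SE 0.051 and an edgeR adjusted p of 3.2e-16. Mkrn1, an E3 ubiquitin ligase, averaged 1104 ± 24.6 CPM in FGF2/Activin against 407 ± 6.64 CPM in 2iLif, and Odc1, the first enzyme of polyamine synthesis, averaged 932 ± 9.96 CPM in FGF2/Activin against 462 ± 13.3 CPM in 2iLif. Ncl, an abundant nucleolar protein, rose by a log2 fold change of 0.29, and Hnrnpa2b1, an RNA-binding protein, by 0.38.

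On the side of losses, Eef1a1, the elongation factor of translation, had 5659, 5679.97 and 5749.6 CPM in FGF2/Activin, against 7094, 7315 and 7645 CPM in 2iLif. The libraries did not overlap, and the log2 fold change was -0.37 (SE 0.042, edgeR adjusted p = 8.8e-07). Pabpc1, a poly(A) binding protein, averaged 2454 ± 18.2 CPM in FGF2/Activin against 3361 ± 32.04 CPM in 2iLif, and Hsp90ab1, a chaperone, fell by 0.16 on the log2 scale. Eef1a1, Pabpc1, Hsp90ab1 and Ldha have processed pseudogenes, and reads shared with those copies may be counted for either. The naive factors Tfcp2l1 and Esrrb were among the largest losses, Tfcp2l1 with 25.6, 27.5 and 27.3 CPM in FGF2/Activin, against 1318, 1344 and 1249 CPM in 2iLif. So were Fn1, the matrix protein fibronectin, at 552 ± 5.27 CPM in FGF2/Activin against 1419.6 ± 122 CPM in 2iLif, and Trh, the precursor of thyrotropin-releasing hormone, at 58.6 ± 2.19 CPM in FGF2/Activin against 772 ± 27.4 CPM in 2iLif. CT010467.1 also met the rule for the largest losses, but its log2 fold change of -1.96 was 0.04 without 2iLif replicate 3 (edgeR adjusted p = 0.92).

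JAK-STAT genes were lower in FGF2/Activin. Of 18 tested members 14 fell (77.8%, against 32.6% of all genes), 2 rose and 2 did not pass, with a median log2 fold change of -1.21. Socs3, the feedback inhibitor that STAT3 induces, had 2.23, 2.36 and 2.17 CPM in FGF2/Activin, against 131, 133 and 133 CPM in 2iLif. Its 2iLif libraries agreed closely and all lay far above FGF2/Activin (log2 fold change -5.87, SE 0.26, edgeR adjusted p = 8.3e-12). Bcl3, an atypical regulator of NF-kappa-B, had 0.917, 1.404 and 1.28 CPM in FGF2/Activin, against 54.6, 55.5 and 59.7 CPM in 2iLif. Il6ra, a receptor subunit that pairs with gp130, averaged 2.17 ± 0.382 CPM in FGF2/Activin against 27.3 ± 0.521 CPM in 2iLif, and Stat5a, a transcription factor of the same family as STAT3, averaged 3.05 ± 0.298 CPM in FGF2/Activin against 26.2 ± 1.36 CPM in 2iLif. The 2 members that rose were Socs1, a further feedback inhibitor, at 8.57 ± 1.005 CPM in FGF2/Activin against 2.64 ± 0.485 CPM in 2iLif, and Pias1, a SUMO ligase that binds STAT proteins, with a log2 fold change of 0.52.

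Wnt genes split by role. Among feedback targets and nuclear effectors, 12 of 19 fell, 6 rose and 1 did not pass, with a median log2 fold change of -1.51. Cdx1, a caudal homeobox factor, had 1 count in FGF2/Activin and 434 in 2iLif, and Dkk1, a secreted Wnt inhibitor, had 2 in FGF2/Activin and 43 in 2iLif. Lef1, a nuclear partner of beta-catenin, moved the other way with 77.1, 72.9 and 75.5 CPM in FGF2/Activin, against 1.95, 1.56 and 1.82 CPM in 2iLif. Lef1 libraries did not overlap (log2 fold change 5.40, SE 0.12, edgeR adjusted p = 3.9e-15), and Nkd1, an inhibitor of Dishevelled, rose too, at 4.53 ± 1.03 CPM in FGF2/Activin against 1.01 ± 0.149 CPM in 2iLif. Ligands and receptors leaned upward by number of genes: 14 of 23 rose (60.9%, against 33.3% of all genes), 7 fell and 2 did not pass, with a median of 1.69. The summed level of this list was lower, though, at 711 CPM in FGF2/Activin against 799 CPM in 2iLif. Wnt3, a canonical ligand, had 123 counts in FGF2/Activin and 2 in 2iLif, a count ratio of 61.7 (95% interval 16.7 to 515). Wnt8a averaged 1.57 ± 0.151 CPM in FGF2/Activin against 0.132 ± 0.064999 CPM in 2iLif and Wnt9a averaged 1.89 ± 0.171 CPM in FGF2/Activin against 0.109 ± 0.0361 CPM in 2iLif, so these ligands stayed low in both groups. Sfrp1, a secreted protein that binds Wnt ligands, had 11.01, 11.3 and 12.3 CPM in FGF2/Activin, against 177, 174 and 177 CPM in 2iLif. It fell by 3.93 on the log2 scale (SE 0.22), and Wnt11, a ligand of the planar polarity route, averaged 0.152 ± 0.165 CPM in FGF2/Activin against 1.75 ± 0.5002 CPM in 2iLif.

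The promoters of Sp5 and Socs3 are shown because these genes fell by the largest fold in the Wnt feedback and JAK-STAT lists. Each is a window of 300 bases of RefSeq sequence (GRCm38.p6) around the transcription start, read on the gene's strand, with a match to a factor's consensus word in capitals. The capitals in Sp5 mark CTTTGAT, a word that Tcf and Lef factors bind, starting 104 bases before the transcription start. In Socs3 they mark TTCNNNGAA, the word of STAT factors, starting 154 bases before the start.
Sp5 (chr2:70474673-70474972, plus strand): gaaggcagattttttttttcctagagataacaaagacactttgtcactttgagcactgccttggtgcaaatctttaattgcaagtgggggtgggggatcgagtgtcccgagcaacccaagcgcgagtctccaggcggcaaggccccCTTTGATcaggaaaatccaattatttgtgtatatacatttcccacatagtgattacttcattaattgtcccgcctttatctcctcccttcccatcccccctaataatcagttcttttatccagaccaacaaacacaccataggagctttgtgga
Socs3 (chr11:117969317-117969616, minus strand): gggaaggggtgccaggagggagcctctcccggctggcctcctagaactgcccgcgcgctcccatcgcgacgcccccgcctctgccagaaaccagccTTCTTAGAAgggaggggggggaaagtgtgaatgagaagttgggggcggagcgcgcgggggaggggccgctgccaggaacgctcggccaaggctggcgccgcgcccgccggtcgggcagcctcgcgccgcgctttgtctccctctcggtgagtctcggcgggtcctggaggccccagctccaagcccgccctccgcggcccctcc
CTTTGAT, searched on both strands, was found for 1 of 14 tested Wnt feedback genes with a window, against 4.29% of 27025 genes with one. These 27025 include genes that were too low to test. TTCNNNGAA was found for 2 of 16 tested JAK-STAT genes, against 9.55% of genes. A match is a description of these letters and no evidence of binding, and its absence says only that the word is not in this window.

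FGF ligands moved both ways and all 4 FGF receptor genes rose, beside an increase in ERK feedback genes. Of 18 tested FGF genes 10 rose, 5 fell and 3 did not pass, with a median log2 fold change of 0.80. Beside Fgf5 and Fgf15, Fgf8, a ligand of the gastrulating embryo, rose, with 2.29, 3.06 and 1.72 CPM in FGF2/Activin, against 0.06499, 0.0676 and 0.195 CPM in 2iLif. Fgf10, a ligand of branching organs, had 3 counts in FGF2/Activin and 233 in 2iLif, a count ratio of 77.4 (95% interval 26.2 to 378) in favour of 2iLif. Flrt3, a membrane partner of FGF receptors, averaged 2.56 ± 0.3903 CPM in FGF2/Activin against 12.9 ± 0.625 CPM in 2iLif. Of 23 tested ERK feedback and immediate early genes 16 rose (69.6%), 2 fell and 5 did not pass, with a median of 0.88. Dusp4, a nuclear phosphatase that inactivates ERK, had 115, 122 and 126 CPM in FGF2/Activin, against 2.405, 2.03 and 1.89 CPM in 2iLif. The groups were far apart (log2 fold change 5.84, SE 0.19, edgeR adjusted p = 3.7e-13). Dusp2, of the same phosphatase family, had 93 counts in FGF2/Activin and 0 in 2iLif, at least 31.1-fold higher, while Dusp5 averaged 11.7 ± 0.531 CPM in FGF2/Activin against 1.69 ± 0.291 CPM in 2iLif. Spred3, an inhibitor of Ras signalling, averaged 19.7 ± 0.568 CPM in FGF2/Activin against 3.32 ± 0.0699 CPM in 2iLif. Spry2, a Sprouty inhibitor of receptor signalling, went against the rest, with 46.5, 48.6 and 45.5 CPM in FGF2/Activin, against 102, 108 and 108 CPM in 2iLif, and Dusp14 fell by 0.55 on the log2 scale.

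Heparan sulfate chains hold FGF ligands against their receptors, and the genes that build them were rearranged without a common direction: 7 of 22 rose, 10 fell and 5 did not pass, with a median log2 fold change of -0.07. Hs6st2, a 6-O-sulfotransferase of these chains, had 14.3, 14.8 and 13.7 CPM in FGF2/Activin, against 0.325, 0.541 and 0.586 CPM in 2iLif. Hs3st3b1, a 3-O-sulfotransferase, had 0.328, 0.383 and 0.128 CPM in FGF2/Activin, against 5.78, 5.28 and 6.06 CPM in 2iLif. The 2 enzymes therefore moved in opposite directions, without overlap between groups in either. Among the core proteins, Gpc1 averaged 37.6 ± 2.94 CPM in FGF2/Activin against 6.94 ± 0.3896 CPM in 2iLif and Gpc4 averaged 20.4 ± 0.7898 CPM in FGF2/Activin against 65.8 ± 3.72 CPM in 2iLif.

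Nodal, Activin and BMP genes had 13 members higher, 10 lower and 6 not passed of 29 tested, with a median log2 fold change of 0.08. Lefty1, Skil and Lefty2 rose by the largest folds in the list. Skil, a repressor of SMAD proteins, had 466, 479 and 504 CPM in FGF2/Activin, against 25.5, 25.8 and 24.2 CPM in 2iLif. Lefty2, a Nodal inhibitor, averaged 138 ± 3.65 CPM in FGF2/Activin against 7.58 ± 1.44 CPM in 2iLif, so it rose together with Lefty1 (log2 fold change 4.19, SE 0.19, edgeR adjusted p = 1.3e-11). The 2 Lefty genes are close copies, so reads from one may have been assigned to the other. Pcsk6, a protease that can process Nodal, had 13.6, 14.4 and 12.6 CPM in FGF2/Activin, against 104, 104 and 109.7 CPM in 2iLif, and it fell. Id genes, which BMP signalling induces, split: Id4 averaged 0.428 ± 0.157 CPM in FGF2/Activin against 8.59 ± 0.276 CPM in 2iLif, Id1 1.24 ± 0.0856 CPM in FGF2/Activin against 5.68 ± 0.769 CPM in 2iLif and Id3 13.8 ± 1.48 CPM in FGF2/Activin against 55.9 ± 1.49 CPM in 2iLif, whereas Id2 rose, at 7.26 ± 0.661 CPM in FGF2/Activin against 1.71 ± 0.378 CPM in 2iLif.

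In the Notch list 12 of 23 tested genes rose, 6 fell and 5 did not pass, with a median log2 fold change of 0.98. The ligand gene Dll1 had 14.9, 14.4 and 14.7 CPM in FGF2/Activin, against 0.06499, 0.271 and 0.2605 CPM in 2iLif. Its FGF2/Activin libraries were all above its 2iLif libraries (log2 fold change 6.16, SE 0.24, edgeR adjusted p = 2.2e-12). Mfng, a glycosyltransferase that modifies Notch receptors, averaged 6.93 ± 0.8002 CPM in FGF2/Activin against 0.348 ± 0.245 CPM in 2iLif. Dlk1, a ligand-like protein, had 107 counts in FGF2/Activin and 3 in 2iLif, and Hes3, a repressor of the Hes family, had 29 in FGF2/Activin and 1 in 2iLif. In the other direction, the ligand gene Jag1 averaged 15.5 ± 0.444 CPM in FGF2/Activin against 54.4 ± 3.36 CPM in 2iLif, and the receptor gene Notch4 averaged 2.21 ± 0.161 CPM in FGF2/Activin against 14.4 ± 1.17 CPM in 2iLif. Among receptors, Notch3 had 227, 221 and 218 CPM in FGF2/Activin, against 43.9, 41.3 and 46.8 CPM in 2iLif, and Notch2 rose as well, while Notch1 had 45.3, 50.8 and 52.1 CPM in FGF2/Activin, against 64.7, 71.3 and 58.4 CPM in 2iLif and did not pass (edgeR adjusted p = 0.055).

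Hedgehog genes had 7 of 13 higher, 5 lower and 1 not passed, with a median log2 fold change of 0.84. Smo, the transducer of the pathway, had 53.998, 57.2 and 50.2 CPM in FGF2/Activin, against 7.41, 5.82 and 7.81 CPM in 2iLif, and Hhip, which sequesters the ligand, averaged 27.9 ± 1.09 CPM in FGF2/Activin against 4.82 ± 0.815 CPM in 2iLif. Gli2, the main activating transcription factor, went down to 28.9 ± 2.56 CPM in FGF2/Activin against 114 ± 3.85 CPM in 2iLif, and the co-receptor gene Boc averaged 1.03 ± 0.187 CPM in FGF2/Activin against 6.02 ± 0.175 CPM in 2iLif. Hippo genes had 8 of 21 higher and 11 lower, with a median of -0.18, and their DNA-binding Tead factors changed places. Tead4 had 8.45, 7.21 and 8.94 CPM in FGF2/Activin, against 68.1, 68.1 and 68.2 CPM in 2iLif, and Tead1 averaged 32.5 ± 1.68 CPM in FGF2/Activin against 177 ± 16.8 CPM in 2iLif. Tead2 had 222, 208 and 208 CPM in FGF2/Activin, against 65.3, 60.1 and 64.3 CPM in 2iLif, and Tead3 averaged 9.75 ± 1.13 CPM in FGF2/Activin against 3.59 ± 0.4102 CPM in 2iLif. Tead1 and Tead4 thus fell while Tead2 and Tead3 rose. Axl, a receptor kinase known as a target of YAP, fell to 1.29 ± 0.398 CPM in FGF2/Activin against 6.86 ± 1.23 CPM in 2iLif, and Amot, a scaffold that retains YAP, averaged 14.3 ± 1.17 CPM in FGF2/Activin against 4.27 ± 0.496 CPM in 2iLif.

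Retinoic acid genes had 8 of 17 higher, 5 lower and 4 not passed. Their median log2 fold change was 0.34, and 0.005 with genes at 0 in a group set to their bound. Crabp2, which carries retinoic acid to the nucleus, had 20.2, 20.7 and 20.4 CPM in FGF2/Activin, against 0.585, 0.744 and 0.521 CPM in 2iLif. Rxrg, a retinoid receptor, had 165 counts in FGF2/Activin and 0 in 2iLif (at least 55.2-fold higher), and Stra6, a retinol uptake receptor, had 91 in FGF2/Activin and 0 in 2iLif (at least 30.4-fold higher). A pair of retinaldehyde dehydrogenases, which make retinoic acid, went the other way, with Aldh1a2 at 0.771 ± 0.286 CPM in FGF2/Activin against 4.65 ± 0.771 CPM in 2iLif and Aldh1a3 at 0.107 ± 0.0732 CPM in FGF2/Activin against 1.94 ± 0.198 CPM in 2iLif.

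At the cell surface, guidance molecules were exchanged rather than lost together. Of 22 tested netrins, semaphorins, slits and receptors 14 rose and 8 fell, so every tested member passed, with a median log2 fold change of 1.27. Sema6a, a transmembrane semaphorin, had 53.5, 50.03 and 51.2 CPM in FGF2/Activin, against 1.105, 1.29 and 1.37 CPM in 2iLif. Nrp2, a semaphorin and VEGF co-receptor, had 6.16, 5.74 and 5.81 CPM in FGF2/Activin, against 198, 197 and 188 CPM in 2iLif, and Slit2, a secreted repellent, averaged 1.97 ± 0.366 CPM in FGF2/Activin against 50.6 ± 1.43 CPM in 2iLif. These changes ran in opposite directions, with log2 fold changes of 5.36 for Sema6a (SE 0.23) and -5.04 for Nrp2 (SE 0.24). Eph receptors and ephrins had 6 of 17 higher, 5 lower and 6 not passed, with a median of 0.21. Without 2iLif replicate 1 the number that rose was 3. Efnb2, a transmembrane ephrin, had 59.9, 63.2 and 62.3 CPM in FGF2/Activin, against 2.01, 2.097 and 2.21 CPM in 2iLif. Epha4, a receptor for both ephrin classes, had 3.47, 4.66 and 4.47 CPM in FGF2/Activin, against 139, 139 and 131 CPM in 2iLif. Epha1 rose to 47.3 ± 2.37 CPM in FGF2/Activin against 8.05 ± 0.46001 CPM in 2iLif, and Efna3 fell to 2.53 ± 0.226 CPM in FGF2/Activin against 7.19 ± 0.859 CPM in 2iLif.

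Most genes of epithelial junctions rose. Of 26 tested genes for tight junctions, polarity and lumen 20 rose (76.9%), 3 fell and 3 did not pass, with a median log2 fold change of 0.86. Cldn6, a claudin of early embryonic epithelia, had 140.4, 136 and 137 CPM in FGF2/Activin, against 4.29, 5.21 and 5.08 CPM in 2iLif. All FGF2/Activin libraries lay above all 2iLif libraries (log2 fold change 4.83, SE 0.16, edgeR adjusted p = 3.7e-13). Cldn5, a claudin known from endothelium, averaged 2.63 ± 0.7898 CPM in FGF2/Activin against 0.111 ± 0.103 CPM in 2iLif, and Cldn9 averaged 1.25 ± 0.1803 CPM in FGF2/Activin against 0.109 ± 0.0361 CPM in 2iLif, so both stayed at low levels. Rab25, a GTPase of apical recycling, had 27.5, 25.1 and 25.5 CPM in FGF2/Activin, against 2.14, 2.03 and 1.11 CPM in 2iLif. Muc1, an apical mucin, fell to 0.236 ± 0.0984 CPM in FGF2/Activin against 2.52 ± 0.462 CPM in 2iLif, and Llgl2, a basolateral polarity protein, had 88.99, 88.8 and 88.3 CPM in FGF2/Activin, against 145, 145 and 149.7 CPM in 2iLif. Cadherins and their partners had 10 of 17 higher, 6 lower and 1 not passed, with a median of 0.68. Pcdh1, a protocadherin of epithelia, had 130.4, 118 and 124 CPM in FGF2/Activin, against 0.9099, 0.338 and 0.847 CPM in 2iLif. It had the largest fold in the list (log2 fold change 7.45, SE 0.27, edgeR adjusted p = 8.6e-13). Cdh3, P-cadherin, averaged 42.3 ± 3.12 CPM in FGF2/Activin against 5.29 ± 0.142 CPM in 2iLif, and Epcam, an epithelial adhesion molecule, averaged 317 ± 4.16 CPM in FGF2/Activin against 53.5 ± 3.94 CPM in 2iLif. The 2 members that fell by the largest fold were Ctnnd2, a delta-catenin, at 3.01 ± 0.622 CPM in FGF2/Activin against 18.7 ± 2.08 CPM in 2iLif, and Dsg2, a desmosomal cadherin, at 37.9 ± 1.62 CPM in FGF2/Activin against 90.1 ± 3.46 CPM in 2iLif.

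**Figure D2:**
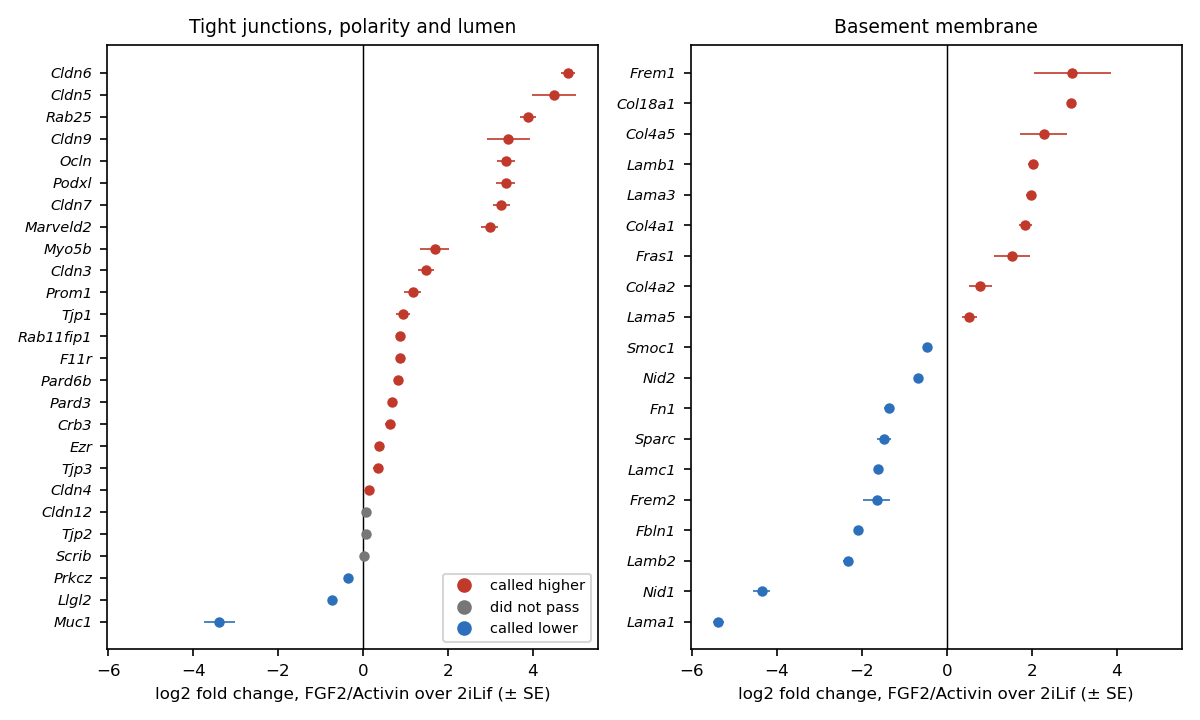
Log2 fold changes of FGF2/Activin over 2iLif, ± SE from edgeR, for the 26 tested genes of tight junctions, polarity and lumen (left) and the 19 tested basement membrane genes (right), colored by whether they passed and in which direction. On the left 20 genes lie to the right of 0 as called and 3 to the left, while on the right 9 rose and 10 fell.

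Basement membrane genes changed in all 19 tested cases, with 9 higher, 10 lower and a median log2 fold change of -0.46. Col18a1 and Frem1, an adhesion protein of the epidermal basement membrane, led the genes that rose, but Frem1 had 18 counts in FGF2/Activin and 2 in 2iLif. Lama1, the alpha chain of the laminin that Matrigel also holds as protein, had 5.11, 4.15 and 4.34 CPM in FGF2/Activin, against 194, 192 and 179 CPM in 2iLif. Nid1, which links laminin to collagen IV, had 13.6, 13.9 and 13.99 CPM in FGF2/Activin, against 284, 292 and 272 CPM in 2iLif. Both fell without overlap (log2 fold changes -5.37, SE 0.13, and -4.35, SE 0.20). Another laminin alpha chain, Lama3, rose to 15.9 ± 0.379 CPM in FGF2/Activin against 4.02 ± 0.445 CPM in 2iLif, and Lama5 rose less, at 369 ± 26.1 CPM in FGF2/Activin against 254 ± 20.7 CPM in 2iLif (edgeR adjusted p = 0.014, and 0.072 without 2iLif replicate 3 or 0.051 without FGF2/Activin replicate 1). Integrin genes had 7 of 18 higher, 8 lower and 3 not passed, with a median of -0.09. Itga3, an integrin chain that pairs with beta 1 and binds laminin, had 126, 129 and 122 CPM in FGF2/Activin, against 6.95, 7.17 and 7.42 CPM in 2iLif. Fermt1, a kindlin that activates integrins, averaged 4.71 ± 0.618 CPM in FGF2/Activin against 0.108 ± 0.0993 CPM in 2iLif. Itgb4, the hemidesmosome chain, averaged 3.65 ± 0.3005 CPM in FGF2/Activin against 12.7 ± 1.26 CPM in 2iLif, and Itgb3, a chain that binds vitronectin, averaged 0.517 ± 0.201 CPM in FGF2/Activin against 2.35 ± 0.145 CPM in 2iLif.

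Cytoskeleton genes moved both ways. Of actin and adhesion plaque genes 35.7% rose and 35.7% fell, and of tubulin genes 31.6% rose and 36.8% fell. The shares were 45% and 40% for intermediate filament and lamina genes, against 33.3% and 32.6% over all genes. Intermediate filament and lamina genes had 9 of 20 higher, 8 lower and 3 not passed, with a median log2 fold change of 0.08. Vim, the mesenchymal filament vimentin, had 57.5, 57.8 and 56.4 CPM in FGF2/Activin, against 605, 616 and 627 CPM in 2iLif. Krt18, a keratin of simple epithelia, had 79.03, 71.3 and 77.8 CPM in FGF2/Activin, against 3.57, 3.31 and 2.996 CPM in 2iLif, although Krt18 has many processed pseudogenes, so part of its count may depend on reads shared with them. Lmna, the A-type lamin, had 33.4, 33.1 and 33.1 CPM in FGF2/Activin, against 116, 114 and 116 CPM in 2iLif. Nes and Des, filament proteins of progenitors and of muscle, rose to 46.3 ± 2.31 CPM in FGF2/Activin against 7.31 ± 0.9998 CPM in 2iLif and to 8.37 ± 0.629 CPM in FGF2/Activin against 1.64 ± 0.469 CPM in 2iLif. Actin and adhesion plaque genes had 10 of 28 higher, 10 lower and 8 not passed, with a median of 0.13. Tpm2, a tropomyosin, averaged 25.6 ± 0.992 CPM in FGF2/Activin against 2.04 ± 0.0327 CPM in 2iLif, and Cavin1, a coat protein of caveolae, had 9.96, 13.3 and 10.99 CPM in FGF2/Activin, against 107, 109 and 114 CPM in 2iLif. Of 2 genes known from contractile cells, Cnn1 had 118 counts in FGF2/Activin and 2 in 2iLif, and Myl9 had 49 counts in FGF2/Activin and 1 in 2iLif. Among tubulin genes 6 of 19 rose, 7 fell and 6 did not pass, with a median of -0.06. Tubb4a averaged 13.9 ± 1.25 CPM in FGF2/Activin against 0.505 ± 0.07097 CPM in 2iLif and Tubb6 averaged 135 ± 3.61 CPM in FGF2/Activin against 35.99 ± 2.801 CPM in 2iLif, both higher, while Mapt, the microtubule protein tau, averaged 0.771 ± 0.223 CPM in FGF2/Activin against 23.3 ± 1.596 CPM in 2iLif. Stmn2 and Stmn3, which destabilise microtubules, fell to 53.1 ± 0.743 CPM in FGF2/Activin against 351 ± 9.19 CPM in 2iLif and to 1.44 ± 0.141 CPM in FGF2/Activin against 20.2 ± 0.913 CPM in 2iLif.

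Genes of energy metabolism moved both ways in glycolysis, and most nuclear-encoded respiratory chain genes fell. Glycolysis and lactate genes had 11 of 23 higher, 8 lower and 4 not passed, with a median log2 fold change of 0.10. Slc16a3, which exports lactate, had 367, 354 and 348 CPM in FGF2/Activin, against 18.6, 16.4 and 29.2 CPM in 2iLif. Slc2a3, a high-affinity glucose transporter, had 65.6, 61.4 and 75.4 CPM in FGF2/Activin, against 913, 876 and 1007 CPM in 2iLif. These were opposite and large (log2 fold changes 4.05, SE 0.18, and -3.79, SE 0.13). Slc2a1, the other glucose transporter examined, had 449.6, 423 and 459 CPM in FGF2/Activin, against 323, 313 and 355 CPM in 2iLif, so it rose by a log2 fold change of 0.43. Hk1, a hexokinase, fell to 53.2 ± 2.91 CPM in FGF2/Activin against 183 ± 3.33 CPM in 2iLif, and Eno3, an enolase known from muscle, rose to 21.02 ± 0.955 CPM in FGF2/Activin against 5.81 ± 0.483 CPM in 2iLif. Ldhb, the lactate dehydrogenase subunit that favours pyruvate, fell to 247 ± 5.21 CPM in FGF2/Activin against 393 ± 27.6 CPM in 2iLif, opposite to Ldha.

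Pyruvate entry and citric acid cycle genes leaned downward, with 17 of 32 lower (53.1%), 8 higher and 7 not passed and a median log2 fold change of -0.33. Idh2, a mitochondrial isocitrate dehydrogenase, had 73.4, 71.3 and 75.5 CPM in FGF2/Activin, against 146, 151 and 158 CPM in 2iLif. Mpc2, a subunit of the mitochondrial pyruvate carrier, averaged 6.97 ± 1.08 CPM in FGF2/Activin against 16.3 ± 0.338 CPM in 2iLif, and Pdk4, a kinase that inhibits pyruvate dehydrogenase, averaged 2.68 ± 0.108 CPM in FGF2/Activin against 5.48 ± 1.13 CPM in 2iLif. Suclg2, a subunit of succinyl-CoA ligase, rose to 50.99 ± 3.03 CPM in FGF2/Activin against 23.9 ± 1.098 CPM in 2iLif, and Got2, a mitochondrial transaminase, to 159 ± 1.797 CPM in FGF2/Activin against 103 ± 3.43 CPM in 2iLif. Of 33 tested nuclear-encoded respiratory chain genes 23 fell (69.7%), none rose and 10 did not pass, with a median of -0.35. Without the other groups in the fit, 1 of them rose. The changes were small in size: Cox6b2, the testis isoform of a cytochrome oxidase subunit, had 21.1, 20.5 and 21.4 CPM in FGF2/Activin, against 38.9, 40.2 and 41.03 CPM in 2iLif, and no other member fell by a larger fold. Cox5a averaged 80.3 ± 2.58 CPM in FGF2/Activin against 132 ± 12.02 CPM in 2iLif, Cox6a1 116 ± 6.12 CPM in FGF2/Activin against 185 ± 10.9 CPM in 2iLif and Uqcrc2, a core subunit of complex III, 145 ± 2.46 CPM in FGF2/Activin against 219 ± 14.2 CPM in 2iLif. Of 11 tested genes encoded in mitochondrial DNA 3 rose and 2 fell. All 37 such genes in the count table took 2.32% ± 0.04295 of all counts in FGF2/Activin and 2.01% ± 0.0876 in 2iLif. The list of mitochondrially encoded genes holds protein-coding genes only, and of its 7 tested members 2 rose and 5 did not pass. Its member mt-Nd4 had 1398, 1417 and 1354 CPM in FGF2/Activin, against 989.9, 1048 and 1148 CPM in 2iLif. Without 2iLif replicate 1 or 2 none of the 7 passed, and with the other groups left out of the fit all 7 rose, as did 6 with no filter on low counts. The exact two-sided permutation test of that share gave p = 0.1, the smallest that 3 libraries against 3 allow. Cytoplasmic ribosomal protein genes took 4.06% ± 0.0476 of all counts in FGF2/Activin and 4.58% ± 0.131 in 2iLif (exact permutation p = 0.1).

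Most cholesterol genes rose. Of 27 tested 20 rose (74.1%), 3 fell and 4 did not pass, with a median log2 fold change of 0.42. Lss, which forms the sterol ring system, had 248, 244 and 239 CPM in FGF2/Activin, against 125, 129.5 and 126 CPM in 2iLif, and Mvd, an enzyme of the mevalonate route, averaged 110.2 ± 2.82 CPM in FGF2/Activin against 57.5 ± 2.45 CPM in 2iLif. Ebp, a sterol isomerase late in the pathway, went the other way, with 13.2, 12.1 and 12.8 CPM in FGF2/Activin, against 60.3, 63.04 and 65.8 CPM in 2iLif, and Srebf1, the lipid gene regulator, had 136 ± 5.72 CPM in FGF2/Activin against 234 ± 7.51 CPM in 2iLif. The promoter of Hmgcs1 (HMG-CoA synthase, log2 fold change 0.65) is shown as the 1 cholesterol gene of 19 with a window that holds TCACNCCAC, a word bound by Srebf factors, which 1.44% of 27025 genes hold. Capitals mark the word, starting 137 bases before the transcription start.
Hmgcs1 (chr13:119690101-119690400, plus strand, GRCm38.p6): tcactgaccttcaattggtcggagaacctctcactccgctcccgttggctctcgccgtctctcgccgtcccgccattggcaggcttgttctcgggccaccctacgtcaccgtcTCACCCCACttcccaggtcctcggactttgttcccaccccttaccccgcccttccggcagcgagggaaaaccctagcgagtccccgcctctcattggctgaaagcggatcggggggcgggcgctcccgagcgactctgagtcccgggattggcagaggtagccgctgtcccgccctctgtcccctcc
Fatty acid genes showed no common direction, with 9 of 22 higher, 7 lower and a median of 0.06. Fabp5 and Fabp3, fatty acid carriers, exchanged places, Fabp5 at 28.3 ± 1.91 CPM in FGF2/Activin against 3.91 ± 0.948 CPM in 2iLif and Fabp3 at 0.814 ± 0.348 CPM in FGF2/Activin against 8.66 ± 1.42 CPM in 2iLif. Oxidation genes Cpt1a, which admits fatty acids to mitochondria, and Acadm, a dehydrogenase of medium chains, fell to 32.8 ± 0.445 CPM in FGF2/Activin against 123 ± 1.06 CPM in 2iLif and to 71.01 ± 1.93 CPM in FGF2/Activin against 199.96 ± 5.92 CPM in 2iLif.

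Amino acid metabolism held 1 of the largest changes of an enzyme. Tdh, threonine dehydrogenase, on which mouse embryonic stem cells rely for glycine and acetyl-CoA, had 45.3, 46.9 and 50.1 CPM in FGF2/Activin, against 745, 775 and 802 CPM in 2iLif. Its libraries were tight in both groups (log2 fold change -4.03, SE 0.10, edgeR adjusted p = 2.4e-14). Gcat, the next enzyme of the same route, fell to 95.7 ± 3.26 CPM in FGF2/Activin against 201 ± 6.97 CPM in 2iLif, and Ass1, of arginine synthesis, fell to 29.3 ± 1.32 CPM in FGF2/Activin against 122 ± 7.46 CPM in 2iLif. Pycr1, of proline synthesis, rose by a log2 fold change of 0.67. The whole list of threonine, serine and one-carbon genes had 9 of 26 higher, 9 lower and a median log2 fold change of -0.03. Sugar and amino acid transporters had 14 of 21 higher (66.7%), 4 lower and 3 not passed, with a median of 0.51. Slc38a4, which carries neutral amino acids and is imprinted, had 28.05, 32.6 and 31.4 CPM in FGF2/Activin, against 1.04, 1.35 and 1.04 CPM in 2iLif. Slc7a8 and Slc16a10, which move large neutral and aromatic amino acids, rose to 8.77 ± 1.14 CPM in FGF2/Activin against 0.726 ± 0.0813 CPM in 2iLif and to 20.2 ± 0.796 CPM in FGF2/Activin against 1.797 ± 0.275 CPM in 2iLif. Slc6a6, the taurine transporter, fell to 145 ± 2.17 CPM in FGF2/Activin against 364 ± 7.55 CPM in 2iLif, and Slc36a1, a lysosomal amino acid exporter, fell to 6.05 ± 0.624 CPM in FGF2/Activin against 15.1 ± 0.282 CPM in 2iLif. Redox genes had 13 of 31 higher, 10 lower and a median of 0.03. Gss, glutathione synthetase, had 25.2, 20.4 and 23.8 CPM in FGF2/Activin, against 101, 98.9 and 105 CPM in 2iLif, Gsta3, a glutathione transferase, averaged 2.62 ± 0.423 CPM in FGF2/Activin against 10.1 ± 0.673 CPM in 2iLif, and Mgst1, a membrane-bound relative, averaged 2.92 ± 0.103 CPM in FGF2/Activin against 0.639 ± 0.153 CPM in 2iLif.

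Lysosome and autophagy genes fell together. Of 37 tested 27 fell (73.0%, against 32.6% of all genes), 5 rose and 5 did not pass, with a median log2 fold change of -0.44. Tfeb, a transcription factor that drives lysosome genes, had 7.99, 6.38 and 8.94 CPM in FGF2/Activin, against 70.3, 75.8 and 74.95 CPM in 2iLif. Ulk1, the kinase that starts autophagy, had 55.96, 59.7 and 63.8 CPM in FGF2/Activin, against 315, 318 and 305 CPM in 2iLif. Neither of these genes overlapped between groups, with log2 fold changes of -3.24 (SE 0.12) and -2.39 (SE 0.089). Ctsa, a lysosomal carboxypeptidase, averaged 39.2 ± 0.763 CPM in FGF2/Activin against 146 ± 5.59 CPM in 2iLif. Rragd, a GTPase that recruits mTORC1 to lysosomes, rose, with 256, 252 and 263 CPM in FGF2/Activin, against 89.7, 87.9 and 85.3 CPM in 2iLif, and so did Ctsz, a cathepsin, at 56.8 ± 1.67 CPM in FGF2/Activin against 29.4 ± 2.79 CPM in 2iLif.

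**Figure D3:**
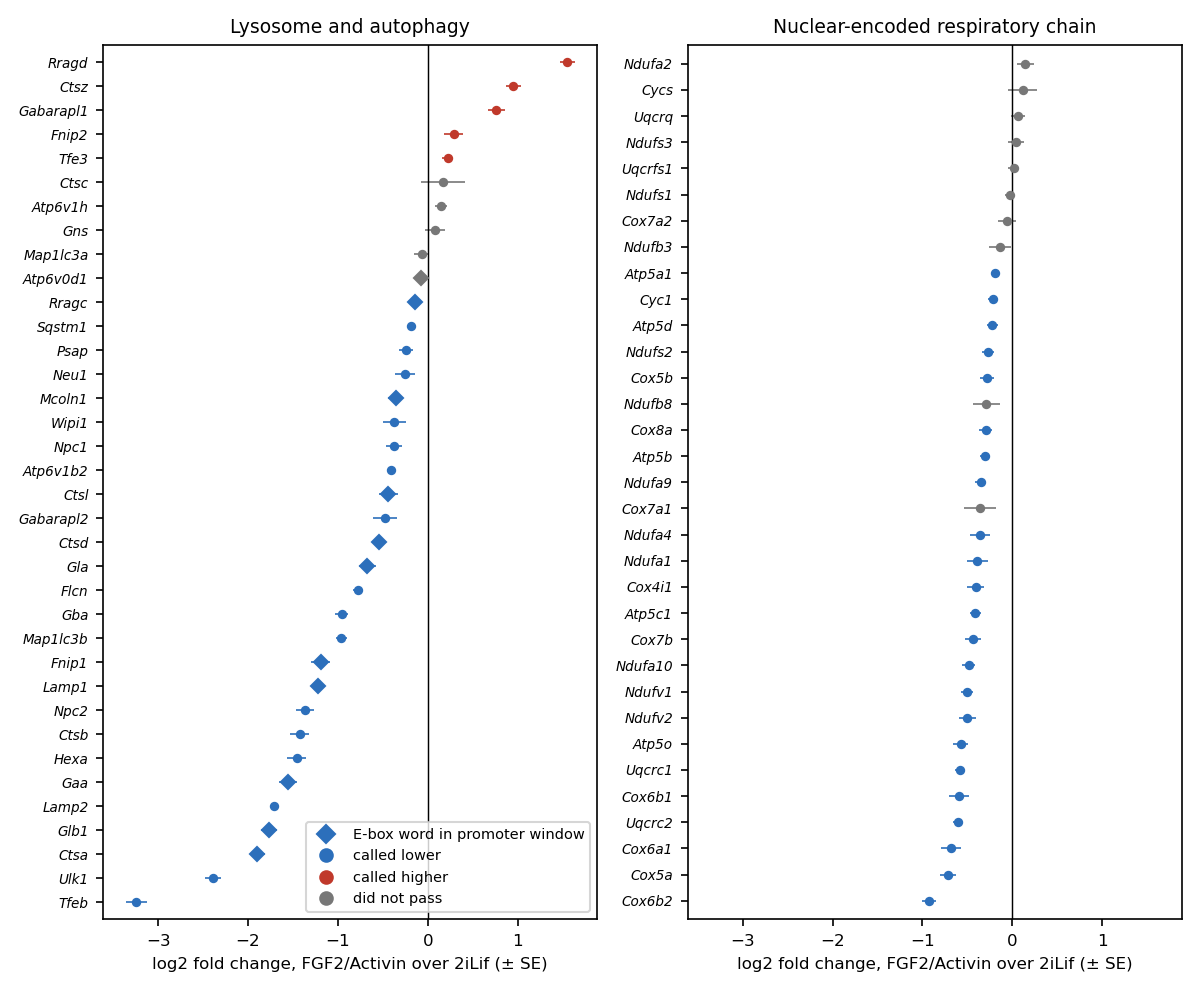
Log2 fold changes of FGF2/Activin over 2iLif, ± SE from edgeR, for 36 of the 37 tested lysosome and autophagy genes (left, diamonds where the promoter window holds CACGTG) and the 33 tested nuclear-encoded respiratory chain genes (right). Most points of both panels lie below 0, and the lysosome changes reach further.

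The promoters of Lamp1, Ctsa and Glb1 are shown because they belong to lysosome genes that fell and hold CACGTG, an E-box word that Tfeb, Tfe3, Myc and other factors bind. Lamp1 encodes a major membrane protein of lysosomes (log2 fold change -1.22, SE 0.050) and Glb1 a beta-galactosidase (-1.76, SE 0.088). They were chosen after their values were seen. The word is in capitals, and it occurs 4 times in the Lamp1 window, the first match 61 bases before the transcription start, 2 times in that of Ctsa and 1 time in that of Glb1.
Lamp1 (chr8:13158911-13159210, plus strand, GRCm38.p6): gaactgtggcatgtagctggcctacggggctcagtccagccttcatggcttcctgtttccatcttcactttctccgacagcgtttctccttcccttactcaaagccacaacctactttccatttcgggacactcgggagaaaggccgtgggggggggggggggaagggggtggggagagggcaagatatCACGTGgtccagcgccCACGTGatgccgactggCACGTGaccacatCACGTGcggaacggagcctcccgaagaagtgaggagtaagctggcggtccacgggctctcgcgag
Ctsa (chr2:164833523-164833822, plus strand, GRCm38.p6): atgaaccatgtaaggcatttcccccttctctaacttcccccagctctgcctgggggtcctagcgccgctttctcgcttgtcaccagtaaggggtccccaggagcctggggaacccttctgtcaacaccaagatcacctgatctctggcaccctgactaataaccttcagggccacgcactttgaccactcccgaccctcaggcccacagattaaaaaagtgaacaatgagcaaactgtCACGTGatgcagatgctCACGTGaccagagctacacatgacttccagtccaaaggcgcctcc
Glb1 (chr9:114400828-114401127, plus strand, GRCm38.p6): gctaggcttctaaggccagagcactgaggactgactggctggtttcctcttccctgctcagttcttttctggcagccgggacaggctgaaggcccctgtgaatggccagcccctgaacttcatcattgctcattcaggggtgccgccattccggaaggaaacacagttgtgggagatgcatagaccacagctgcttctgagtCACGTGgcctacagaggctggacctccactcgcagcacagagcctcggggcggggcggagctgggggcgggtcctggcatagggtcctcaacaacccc
Of 29 tested lysosome genes with a window, 11 held CACGTG (37.9%), against 8.09% of 27025 genes. The 2 shares are not like for like, since the 27025 include genes too low to test. Of these 11, 10 fell and 1 did not pass. The 10 had log2 fold changes from -1.90 to -0.14. Over the whole list 27 of 37 fell (73.0%), and the share among genes without the word was not computed. Lysosome genes are known as a class with this word, so its frequency describes the list and says nothing of which factor acts on it.

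Genes that write and erase DNA methylation moved both ways. Of 20 tested 8 rose, 10 fell and 2 did not pass, with a median log2 fold change of -0.10. Beside Dnmt3a and Dnmt3b, Gadd45g, a stress protein linked to demethylation, had 26.2, 25.1 and 26.9 CPM in FGF2/Activin, against 0.845, 0.609 and 0.391 CPM in 2iLif. Tet2, which oxidises methylcytosine, had 10.4, 12.1 and 12.6 CPM in FGF2/Activin, against 119.7, 114 and 96.1 CPM in 2iLif. Tet1 averaged 410.02 ± 4.91 CPM in FGF2/Activin against 602 ± 79.9 CPM in 2iLif, and Tet3 rose, with 38.7, 36.4 and 36.8 CPM in FGF2/Activin, against 4.94, 4.06 and 3.71 CPM in 2iLif. Polycomb, trithorax and histone variant genes had 12 of 41 higher, 18 lower and 11 not passed, with a median of -0.09. H2afy, which encodes macroH2A1, had 11.4, 9.57 and 11.6 CPM in FGF2/Activin, against 135, 132 and 143 CPM in 2iLif. Smarcd3, a subunit of SWI/SNF remodelling complexes, averaged 0.796 ± 0.251 CPM in FGF2/Activin against 33.7 ± 0.399 CPM in 2iLif, and Hmga2, an architectural chromatin protein, averaged 6.93 ± 0.778 CPM in FGF2/Activin against 56.3 ± 2.098 CPM in 2iLif. Kdm2b, which recruits a Polycomb complex to CpG islands, had 147, 149 and 146 CPM in FGF2/Activin, against 38.4, 34.8 and 34.1 CPM in 2iLif, and Chd7, a remodelling enzyme, averaged 83.7 ± 4.27 CPM in FGF2/Activin against 35.9 ± 0.943 CPM in 2iLif.

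Imprinted genes had 15 of 30 higher, 6 lower and 9 not passed, with a median log2 fold change of 0.58. Cdkn1c, a CDK inhibitor expressed from the maternal allele, had 17.6, 20.5 and 19.5 CPM in FGF2/Activin, against 2.14, 1.56 and 1.95 CPM in 2iLif. Plagl1, a zinc finger factor expressed from the paternal allele, had 1.05, 1.404 and 1.34 CPM in FGF2/Activin, against 38.02, 37.9 and 33.6 CPM in 2iLif. Magel2 had 119 counts in FGF2/Activin and 0 in 2iLif (at least 39.8-fold higher), and Slc22a18 averaged 3.73 ± 0.394 CPM in FGF2/Activin against 12.5 ± 1.25 CPM in 2iLif. Dcn, which encodes the matrix proteoglycan decorin and is imprinted in placenta, had 212 counts in FGF2/Activin and 0 in 2iLif (at least 70.9-fold higher). Dcn is also a fibroblast marker, and the summed level of the 10 fibroblast markers was 22.6 to 25.1 CPM in FGF2/Activin and 4.81 to 5.93 CPM in 2iLif. Of these markers, Dcn, Thy1, Col1a2 and Twist1 rose and Pdgfrb did not pass, whereas Col1a1, Col3a1, Postn, Lum and Prrx1 were too low to test, with Postn, Lum and Prrx1 at 0 in both groups. The part of other cells in these values was not tested, and in bulk RNA more cells of a type and more RNA per cell cannot be told apart.

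Most of the germline genes whose promoters are known to be controlled by DNA methylation rose. Of 23 tested 16 rose (69.6%), 3 fell and 4 did not pass, with a median log2 fold change of 1.32. Tdrd1, which acts in the piRNA pathway, had 6.09, 5.49 and 5.75 CPM in FGF2/Activin, against 0.12999, 0.473 and 0.391 CPM in 2iLif. Sycp2, of the synaptonemal complex, averaged 4.802 ± 1.097 CPM in FGF2/Activin against 0.329 ± 0.0602 CPM in 2iLif, and Slc25a31, a germ cell ADP/ATP carrier, averaged 3.33 ± 0.254 CPM in FGF2/Activin against 0.264 ± 0.13 CPM in 2iLif. None of these 3 was above 6.09 CPM in any library. Zfp42, also known as Rex1 and a marker of naive cells, had 39.1, 46.3 and 42.9 CPM in FGF2/Activin, against 464, 462 and 458 CPM in 2iLif. The 2 other members that fell were the homeobox genes Rhox6, with 47 counts in FGF2/Activin and 82 in 2iLif, and Rhox9, with 28 in FGF2/Activin and 54 in 2iLif, both named after their values were seen, and the number that fell was 1 under DESeq2, without 2iLif replicate 3 or without FGF2/Activin replicate 1 or 3. Small RNA genes showed no common direction, with 4 of 20 higher, 7 lower and a median of 0.06 (8 higher with the other groups left out of the fit). Lin28b, which blocks let-7 maturation, had 82.1, 85.4 and 85.4 CPM in FGF2/Activin, against 25.1, 24.7 and 24.9 CPM in 2iLif, and its relative Lin28a rose by a log2 fold change of 0.52, while Dis3l2, the exonuclease that degrades uridylated let-7 precursors, fell by 0.75 on the log2 scale.

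Cell cycle regulators of G1 had 7 of 21 higher, 11 lower and 3 not passed, with a median log2 fold change of -0.22. The D-type cyclins split. Ccnd2 had 40.04, 43.5 and 43.1 CPM in FGF2/Activin, against 3.38, 1.49 and 2.08 CPM in 2iLif. Ccnd3 had 77.7, 80.5 and 73.1 CPM in FGF2/Activin, against 191, 198 and 204 CPM in 2iLif, and Ccnd1 rose by a log2 fold change of 0.37. Cdkn1a, the CDK inhibitor p21, had 53.8, 52.6 and 56.4 CPM in FGF2/Activin, against 129, 126 and 137 CPM in 2iLif, and Ccne1, the cyclin that partners CDK2 at the entry to S phase, had 441, 427 and 430.4 CPM in FGF2/Activin, against 191, 198 and 204 CPM in 2iLif. Myc and growth genes had 16 of 28 higher, 8 lower and a median of 0.33. Pim2, a survival kinase, had 501, 485 and 459 CPM in FGF2/Activin, against 18.98, 20.3 and 18.04 CPM in 2iLif. Pim1 and Pim3 fell, to 34.5 ± 2.07 CPM in FGF2/Activin against 69.8 ± 3.39 CPM in 2iLif and to 50.8 ± 1.57 CPM in FGF2/Activin against 134 ± 5.64 CPM in 2iLif. Insulin-like growth factor binding proteins rose: Igfbp5 had 54.6, 57.05 and 59.5 CPM in FGF2/Activin, against 1.62, 1.69 and 1.56 CPM in 2iLif, Igfbp3 averaged 21.03 ± 1.03 CPM in FGF2/Activin against 4.79 ± 0.142 CPM in 2iLif and Igfbp4 averaged 7.51 ± 0.6303 CPM in FGF2/Activin against 0.789 ± 0.451 CPM in 2iLif.

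Genes of p53 and apoptosis had 15 of 25 higher (60.0%), 3 lower and 7 not passed, with a median log2 fold change of 0.33. The 4 largest increases by fold in the list were those of 3 pro-apoptotic BH3-only genes and of Bcl2. Pmaip1, known as Noxa, had 61.7, 57.4 and 62.3 CPM in FGF2/Activin, against 1.75, 2.16 and 2.41 CPM in 2iLif. Bcl2l11, known as Bim, had 92.2, 93.997 and 92.9 CPM in FGF2/Activin, against 9.03, 9.94 and 9.44 CPM in 2iLif, and Bik averaged 1.54 ± 0.304 CPM in FGF2/Activin against 0.1101 ± 0.0391 CPM in 2iLif. The groups did not overlap for any of them, and the anti-apoptotic Bcl2 rose as well, at 0.836 ± 0.159 CPM in FGF2/Activin against 0.111 ± 0.103 CPM in 2iLif. Against the direction of the list, Bid, a further BH3-only gene, averaged 75.7 ± 2.09 CPM in FGF2/Activin against 121 ± 3.56 CPM in 2iLif, and Tigar, a phosphatase that restrains glycolysis, averaged 84.3 ± 1.76 CPM in FGF2/Activin against 169.7 ± 2.696 CPM in 2iLif. Stress genes of ATF4 and the unfolded protein response had 8 of 22 higher, 6 lower and 8 not passed, with a median of 0.09. Ddit3, known as CHOP, fell to 6.84 ± 0.852 CPM in FGF2/Activin against 15.1 ± 1.15 CPM in 2iLif and Atf5 to 51.02 ± 1.64 CPM in FGF2/Activin against 95.3 ± 4.16 CPM in 2iLif, while Atf3 rose to 27.3 ± 0.978 CPM in FGF2/Activin against 13.8 ± 1.42 CPM in 2iLif.

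The antigen presentation and interferon list had the highest median of all lists, a log2 fold change of 2.26, with 13 of 23 tested genes higher, 8 lower and 2 not passed. Psmb8 and Psmb9, catalytic subunits of the immunoproteasome, were near absent in 2iLif: Psmb8 had 6.88, 6.57 and 6.26 CPM in FGF2/Activin, against 0, 0 and 0 CPM in 2iLif, at least 102-fold higher, and Psmb9 had 5.05, 4.34 and 4.85 CPM in FGF2/Activin, against 0.06499, 0.135 and 0 CPM in 2iLif. Ifit1, an interferon-induced antiviral protein, had 79 counts in FGF2/Activin and 0 in 2iLif (at least 26.4-fold higher), and Isg15, a ubiquitin-like modifier, had 67 in FGF2/Activin and 1 in 2iLif. Other members of the same response fell. Ifitm1, a membrane protein that limits virus entry, had 19.8, 18.7 and 17.2 CPM in FGF2/Activin, against 126, 134 and 139 CPM in 2iLif, and Oas1a, an antiviral synthetase, averaged 1.42 ± 0.405 CPM in FGF2/Activin against 14.7 ± 1.18 CPM in 2iLif. The Ifitm genes and the class I genes each belong to a family of similar copies, and any reads shared between copies may be counted for either.

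Factors of later lineages moved both ways, in shares not far from those over all genes, of which 33.3% rose and 32.6% fell. Of neural plate factors 37.5% rose and 31.25% fell, and of streak and mesoderm factors 27.3% rose and 36.4% fell. Neural plate factors had 6 of 16 higher, 5 lower and 5 not passed. Their median log2 fold change was 1.09, or 0.67 when genes at 0 in a group were set to their bound. Sox3, a SoxB1 factor, had 48.2, 45.3 and 46.1 CPM in FGF2/Activin, against 1.75, 1.35 and 1.37 CPM in 2iLif. Its relative Sox2 had 169.7, 175 and 173 CPM in FGF2/Activin, against 518, 495 and 494 CPM in 2iLif, and Sox1 averaged 1.42 ± 0.298 CPM in FGF2/Activin against 2.38 ± 0.521 CPM in 2iLif. The 3 SoxB1 genes therefore did not move as one. Nkx1-2, a homeobox factor of caudal progenitors, fell to 1.16 ± 0.175 CPM in FGF2/Activin against 26.1 ± 1.07 CPM in 2iLif, and Ncam1, a neural adhesion molecule, to 1.84 ± 0.202 CPM in FGF2/Activin against 30.1 ± 0.493 CPM in 2iLif. Of 11 tested streak and mesoderm factors 3 rose, 4 fell and 4 did not pass, with a median of -0.03. T, the brachyury factor of the primitive streak, averaged 0.496 ± 0.233 CPM in FGF2/Activin against 4.46 ± 0.433 CPM in 2iLif, and Eomes, which acts in the same region, had 15.5, 11.997 and 10.99 CPM in FGF2/Activin, against 13.1, 13.1 and 13.2 CPM in 2iLif and did not pass. Mixl1, a homeobox factor of mesendoderm, averaged 1.01 ± 0.124 CPM in FGF2/Activin against 0.154 ± 0.0775 CPM in 2iLif. The summed level of primitive endoderm markers averaged 8.22 CPM in FGF2/Activin and 6.70 CPM in 2iLif. Of 5 tested, 1 rose, 2 fell and 2 did not pass. Dab2 rose, at 3.86 ± 0.576 CPM in FGF2/Activin against 0.218 ± 0.134 CPM in 2iLif, whereas Gata4 and Sox7 fell, by 1.36 and 0.85 on the log2 scale. Trophoblast markers summed to 25.2 CPM in FGF2/Activin and 85.6 CPM in 2iLif. In 2iLif most of the trophoblast sum was Tfap2c, at 1.74 ± 0.369 CPM in FGF2/Activin against 53.7 ± 0.463 CPM in 2iLif.

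Paralogues moved apart in some families and together in others. Of 29 families of related genes, 17 had called members in both directions. With 33.3% of all genes higher and 32.6% lower, unrelated genes can also hold both directions, and no baseline for the 17 was computed. Among families that moved as one, 3 of 3 Dnmt3 genes and 4 of 4 FGF receptor genes rose, and 2 of 2 hexokinase genes fell. Sall2 and Sall3, zinc finger factors of one family, had the widest split: Sall2 had 159, 146 and 151 CPM in FGF2/Activin, against 1.69, 1.62 and 0.847 CPM in 2iLif, whereas Sall3 had 1.51, 1.28 and 1.47 CPM in FGF2/Activin, against 56.9, 58.1 and 53.2 CPM in 2iLif. Sall4, the member best known from pluripotent cells, had 182, 181 and 189 CPM in FGF2/Activin, against 314, 313 and 309 CPM in 2iLif. Log2 fold changes were 6.77 for Sall2 (SE 0.18), -5.30 for Sall3 (SE 0.12) and -0.76 for Sall4 (SE 0.054). Among Tcf and Lef factors, Tcf7 and Tcf7l1 rose slightly, by 0.34 and 0.38, and Tcf7l2 fell by 0.40 on the log2 scale. Beta tubulins included Tubb2b, at 71.2 ± 3.26 CPM in FGF2/Activin against 360.03 ± 7.11 CPM in 2iLif, against Tubb4a and Tubb6 above. Cbx subunits of Polycomb complexes were less divided, with Cbx2 at 78.5 ± 2.1001 CPM in FGF2/Activin against 39.4 ± 2.12 CPM in 2iLif and Cbx7 at 214 ± 8.44 CPM in FGF2/Activin against 281 ± 11.1 CPM in 2iLif.

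**Figure D4:**
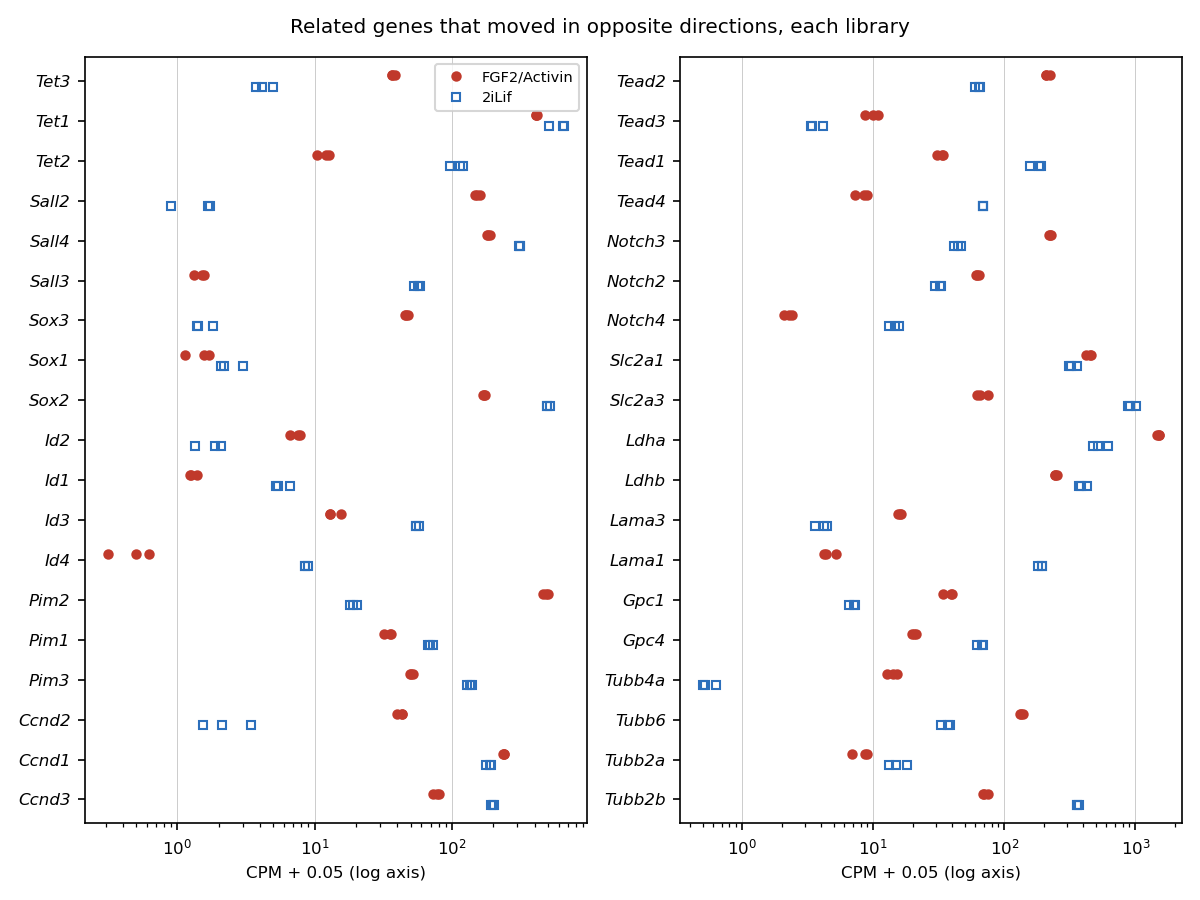
CPM plus 0.05 on a log axis for related genes that moved in opposite directions, 1 point per library, filled circles for FGF2/Activin and open squares for 2iLif. Within each family at least 1 gene has its circles to the right of its squares and at least 1 has them to the left, with Sall2 and Sall3 the furthest apart.

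Over the 42 lists, which hold 1052 genes of which 951 were tested, 27 had a median log2 fold change above 0 and 15 below. Beside the JAK-STAT and lysosome genes, the lists with the largest share of genes that fell were the respiratory chain and Wnt feedback genes. Those with the largest share that rose were tight junction, cholesterol, ERK feedback and germline genes.

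**Figure D5:**
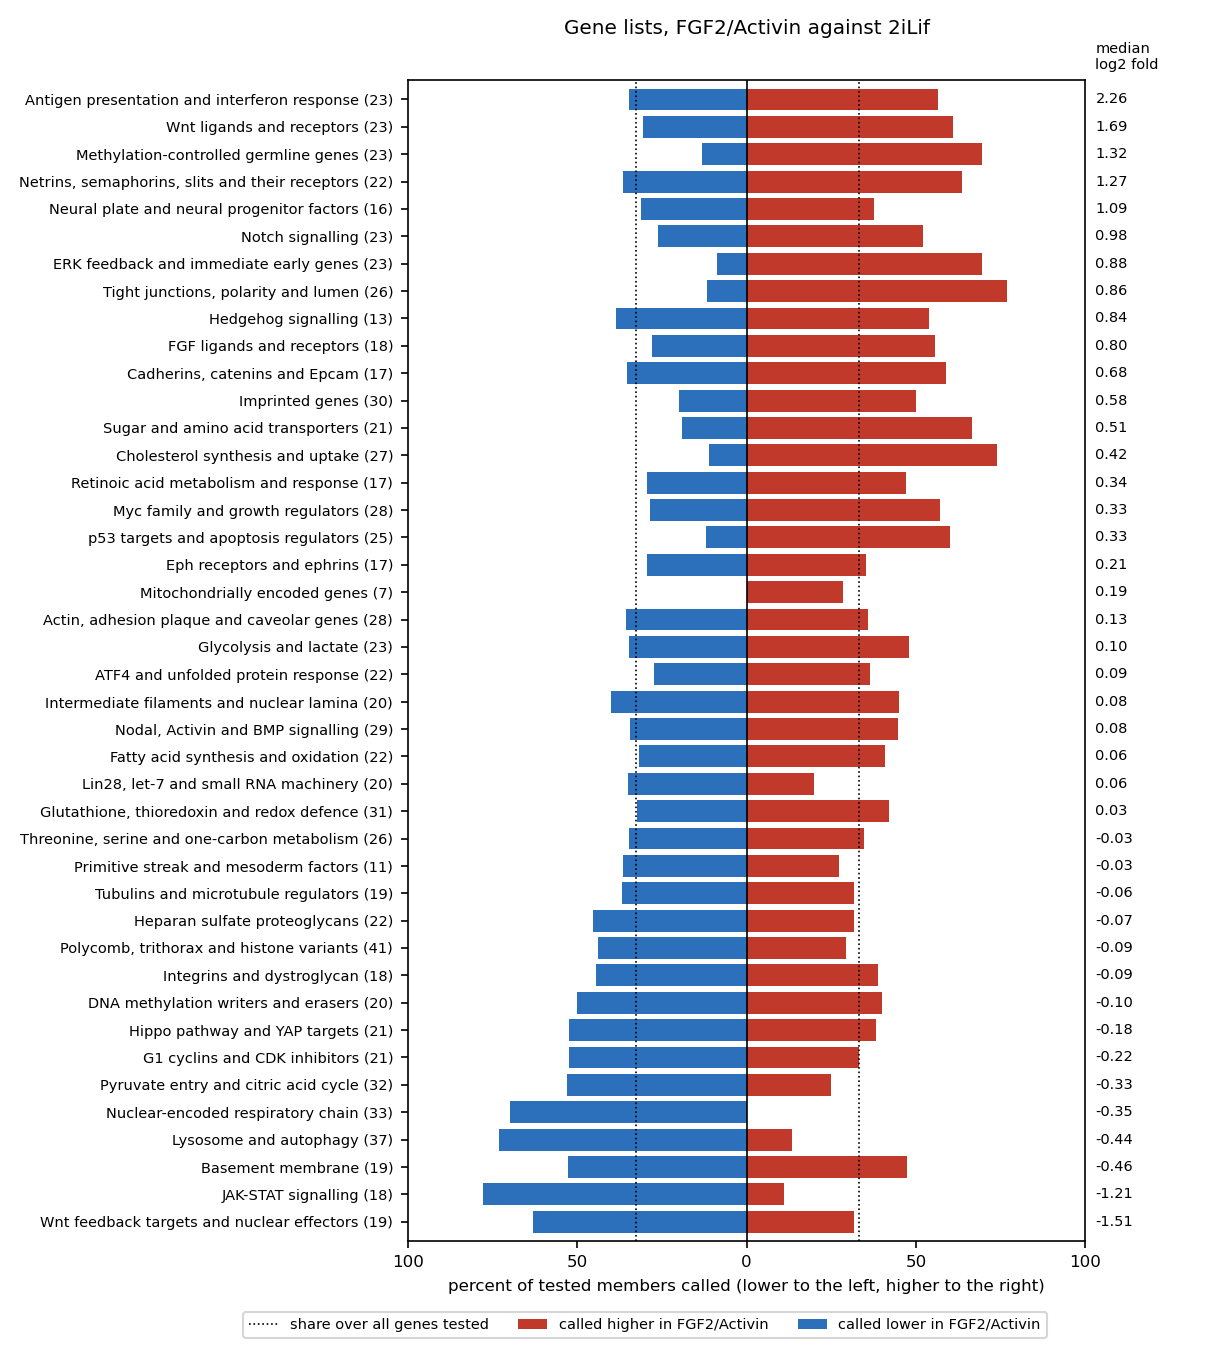
Percent of tested members of each of the 42 lists that rose (red, to the right) or fell (blue, to the left) in FGF2/Activin against 2iLif, with the number tested in brackets and the median log2 fold change at the right. Dotted lines mark the shares over all 15223 genes, 33.3% higher and 32.6% lower.

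The other 9 libraries of the study hold the same cells under PD032, Aurka inh or both, and their levels are set beside this comparison without a test. Their library files are named in another style, so a technical difference from the 6 libraries used here cannot be told apart from the media. Sp5 was at 0 ± 0 CPM in PD032, 13.3 ± 0.7295 CPM in Aurka inh and 4.22 ± 0.729 CPM in PD032+ Aurka inh. Ntn1 was at 4.33 ± 0.171 CPM in PD032, 220.1 ± 31.8 CPM in Aurka inh and 303 ± 14.3 CPM in PD032+ Aurka inh. Ntn1 thus lay between its levels in FGF2/Activin and 2iLif (1.53 ± 0.246 CPM in FGF2/Activin against 421 ± 2.55 CPM in 2iLif) in all 3 groups, low under PD032 alone. Lefty1 was at 2.32 ± 1.102 CPM in PD032, 14.3 ± 5.39 CPM in Aurka inh and 20.3 ± 7.63 CPM in PD032+ Aurka inh, far below its FGF2/Activin level in each. Tdh was at 119.9 ± 11.4 CPM in PD032, 579 ± 95.9 CPM in Aurka inh and 685 ± 26.3 CPM in PD032+ Aurka inh, and Slc16a3 was at 333 ± 18.9 CPM in PD032, 163 ± 27.5 CPM in Aurka inh and 84.4 ± 13.7 CPM in PD032+ Aurka inh. These 5 genes were chosen after their values were seen. The PD032 mean was nearer to FGF2/Activin than to 2iLif on the CPM scale for Sp5, Ntn1, Tdh and Slc16a3, and not for Lefty1.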

How the data were processed

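RNA of wild-type E14 mouse embryonic stem cells in Matrigel was sequenced as poly(A)-selected libraries made with a kit that keeps strand information, per the labels' protocols. The authors deposited a table of whole-number gene counts for 15 libraries of 5 groups, 3 each, and all values start from those counts. The submitters' processing notes name STAR, DESeq2 and the build mm10. The sources used here do not give the counting tool, its strand setting or the annotation, so overlapping or antisense transcripts may add to a gene's count. A second deposited table of normalized values was not used.

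Of 49585 genes, 49326 had a symbol by identifier in GENCODE M21. The filter filterByExpr kept 15223 genes, and counts were scaled by TMM and fitted with edgeR 4.0.16 in R 4.3.3 (glmQLFit and glmQLFTest, 1 term per group, all 15 libraries). Between FGF2/Activin and 2iLif, deviations of replicates of the same number had correlations across genes of -0.026 to 0.0071. For replicates of unlike number they were -0.0087 to 0.026. Replicates differed little beyond counting error, so these values cannot show whether a batch was shared. Numbers were not taken as pairs, since the labels name no batch. Alternatives were DESeq2 1.42.0, scaling by library size alone, no filter, a fit on the 6 libraries, a replicate block and leaving out each library. Where a group had 0 counts, folds are lower bounds computed with 3 counts for that group, and for 1 to 3 counts a count ratio with its 95% interval is given. Promoter sequences are RefSeq windows of 300 bases around transcription starts. Shares of a word over 27025 genes cover all genes with a window, tested or not, whereas list members counted were tested genes.

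The genes named are the 10 with the largest fold in each direction among genes called that had a mean of at least 10 CPM in the higher group, no overlap between groups and no clone or predicted-gene name, the 10 called with the largest change of CPM in each direction, up to 4 genes of each list that passed, with up to 2 in the minority direction, members of families that moved both ways, and marker genes, apart from 5 genes that are not reported here. The comparison, lists and rule were chosen with earlier results of these data known, so no list is independent support for its direction.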

Additional observations from a re-analysis of the deposited data

How the results depend on the processing

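Across the other scalings, filters, fits and left-out libraries, between 9388 and 10858 genes passed, against 10025, and the 4 counts of genes that rose or fell, with or without the 2-fold rule, stayed within 1.5 times their value. Of the 10025 genes that passed, DESeq2 called 9634, scaling by library size alone 9688 and no filter on low counts 9445, none with another sign. Leaving out 1 library left 9213 to 9267 of them called, with 1 of another sign without 2iLif replicate 3. With no filter 29430 genes were tested and 36.3% passed. The largest shift of the median log2 fold change was 0.04, with library size alone. Whether equal replicate numbers mark pairs could not be settled from the data. A fit of the 6 libraries with the replicate number as a block called 10790 genes, 5355 higher and 5435 lower, against 10858 without the block.

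The log2 fold changes that turned direction belonged to CT010467.1 and to genes that had not passed. Leaving out each library in turn gave log2 fold changes of -2.46 to 0.035 for CT010467.1, the highest without 2iLif replicate 3. The same range was -0.011 to 0.059 for Tubb5, -0.31 to 0.12 for Gpc2, -0.35 to 1.32 for Hnf4a, -0.19 to 0.066 for Eomes and -1.28 to 1.19 for Gata3. With library size alone Eomes had 0.0049 and Gata3 0.0050. The causes were not tested. Low counts limit what can be said of Hnf4a and Gata3, which had 16 and 4 counts over the FGF2/Activin libraries.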

Other observations

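The X chromosome had 218 of 551 tested genes higher (39.6%) and 149 lower (27.0%), with a median log2 fold change of 0.11, while chromosome 16 had 26.5% of 449 genes higher and 38.1% lower, with a median of -0.12. These are descriptions with no test. Of 1028 long non-coding and unconfirmed genes tested, 20.2% were higher and 23.2% lower, beside 35.8% and 34.3% of protein-coding genes.

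In 2iLif replicate 3 several long genes were lower than in the other 2iLif libraries. Dst had 432 and 478 CPM in replicates 1 and 2 and 323 CPM in replicate 3, and Mdn1 had 454 and 491 CPM in replicates 1 and 2 and 345 CPM in replicate 3. The chi-squared per degree of freedom between replicate 3 and the others was 6.38 and 5.64, against 1.31 between replicates 1 and 2 and 1.22 to 1.52 within FGF2/Activin.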
